A study of Mus musculus with 6 samples.

Results

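The genes described are 10 enzymes that detoxify quinones, carbonyls, epoxides and related reactive compounds: Nqo1, Nqo2, Cbr1, Cbr3, Akr1a1, Akr1b8, Ephx1, Aox1, Ptgr1 and Esd. They were chosen by symbol, with earlier results of these data known. Each of the 10 was found on 1 transcript cluster of its own among 30024 genes named by a single symbol. The Esd cluster also carries the identifier of the pseudogene Esd-ps, so its reading may hold both. Expression had been measured on 6 arrays of splenic CD4+ CD25+ T cells, a surface phenotype of regulatory T cells, from male C57BL/6 mice without treatment. The series title can be read as naming cells negative for CD4, against the sample labels. A group labelled Keap1 -/- (Keap1_KO, arrays B, C and D) carries floxed Keap1 alleles and a Cre recombinase under the Vav promoter, which is active in blood-forming cells, so that all blood lineages and not T cells alone can lose the gene. The control group is labelled Keap1 +/+ (WT, arrays A, D and F), and no label states whether these mice carried Cre. The labels give 10 to 12 months as the age in one field and 6 to 10 weeks in another, and they do not say whether each array holds 1 mouse or a pool, so p-values measure the spread between arrays, part of which may be technical.

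Keap1 is the adaptor that directs the transcription factor NRF2 to degradation, and electrophiles that modify Keap1 let NRF2 accumulate. NRF2 then binds antioxidant response elements of genes for detoxifying enzymes, of which Nqo1 is the usual reporter. The enzymes act on different chemistry: quinone reductases (Nqo1, Nqo2) transfer a pair of electrons at a time and so bypass the reactive semiquinone, carbonyl and aldo-keto reductases turn ketones and aldehydes into alcohols, and epoxide hydrolase opens epoxides to diols. The remaining members oxidise aldehydes (Aox1), saturate reactive double bonds next to a carbonyl (Ptgr1) or release formate from S-formylglutathione (Esd).

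Promoter sequence was examined because several of these genes are known NRF2 targets. RefSeq (GRCm38.p6) gave 11 promoters for the 10 genes, Nqo2 having 2, and the 250 bases before each start were searched on both strands. The core letters of the antioxidant response element, TGACNNNGC, occurred in 0 of the 11, against 10.2% of all 32851 promoters in the table. The related AP-1 letters TGANTCA, which can overlap the core letters, occurred in 1 of the 11, that of Aox1, against 6.75% of all. The letters TATAAA occurred in 3, those of Nqo1, Akr1b8 and Ephx1, against 12.4% of all, and only in Nqo1 did they lie close to the start, 29 bases before it. A match is a description of the letters, and elements outside the window were not searched. A stretch of promoter, 5′ to 3′ with matches in capitals, is given for the gene with the largest difference (Nqo1, chr8:107403206-107403305, minus strand), for the next (Ptgr1, chr4:58987079-58987178, minus strand, no match) and for the dim gene with the AP-1 letters (Aox1, chr1:58029719-58029818, plus strand).
Nqo1: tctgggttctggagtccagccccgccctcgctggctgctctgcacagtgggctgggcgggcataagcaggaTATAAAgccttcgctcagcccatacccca
Ptgr1: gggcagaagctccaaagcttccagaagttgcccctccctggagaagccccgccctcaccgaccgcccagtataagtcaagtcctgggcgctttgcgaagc
Aox1: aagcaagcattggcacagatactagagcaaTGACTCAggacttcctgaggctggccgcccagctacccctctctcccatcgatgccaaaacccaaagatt

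Values are deposited log2 expression values, n = 3 arrays per group, with differences given as Keap1_KO minus WT. The median over all clusters lay between 5.16 and 5.43 on the 6 arrays and serves as the mark below which a gene is called dim. Correlations across genes were 0.958 to 0.983 between arrays of a genotype and 0.927 to 0.988 between genotypes. The CD4 T cell genes, 10 of 15 with a cluster of their own, averaged 12.76 to 13.27 on WT and 13.02 to 13.94 on Keap1_KO arrays, and the regulatory T cell genes (12 of 14; Foxp3 has no cluster of its own) 10.62 to 10.93 and 11.11 to 12.03. Among markers of other cells, the means over the neutrophil genes (17 of 18 with a cluster, 15 past the intensity filter) were 6.96 to 7.88 on WT arrays and, on the Keap1_KO arrays, 7.06 (B), 8.43 (C) and 10.29 (D). The neutrophil level of Keap1_KO B thus lay inside the WT range and those of Keap1_KO C and D above it. Macrophage and monocyte genes averaged 6.28 to 6.90 on WT and 6.75 to 7.08 on Keap1_KO arrays, where 10 of 17 passed the filter and C1qa, C1qb, Cd14, Cd163, Fcgr1 and Spic did not. On WT and Keap1_KO arrays the means were 6.13 to 7.92 and 6.62 to 8.01 for B cells, 7.19 to 8.07 and 7.34 to 8.94 for plasma cells, and 6.90 to 9.18 and 7.82 to 9.69 for NK cells. They were 5.90 to 6.38 and 6.18 to 6.64 for dendritic cells, 6.34 to 7.79 and 6.67 to 8.38 for the CD8 genes, 5.68 to 6.07 and 5.71 to 5.89 for erythroid cells, 5.93 to 6.22 and 6.03 to 6.47 for platelets, and 5.54 to 5.63 and 5.50 to 5.57 for stroma. The part of other cells in the results was not tested beyond the neutrophil values given with them. Keap1 itself read 5.30 (A), 5.41 (D) and 5.77 (F) in WT and 4.87 (B), 4.89 (C) and 4.70 (D) in Keap1_KO, dim on 4 of the 6 arrays. The groups did not overlap (difference -0.67, limma adjusted p = 0.563 in the fit without the filter, exact permutation p = 0.1), and probes outside the deleted part would not report its loss. Nfe2l2, the gene of NRF2, read 8.73 (A), 9.64 (D) and 8.41 (F) in WT and 9.07 (B), 10.07 (C) and 10.66 (D) in Keap1_KO, with overlap (difference 1.01, limma adjusted p = 0.479). These are bulk samples, in which fewer cells of a type and less RNA per cell cannot be told apart.

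Most of the enzymes had a higher mean in Keap1_KO cells, by amounts that ranged widely. Nqo1 averaged 4.80 ± 0.20 in WT and 8.40 ± 0.80 in Keap1_KO (SD, n = 3 each), 12.1-fold higher, and Ptgr1 averaged 6.11 ± 0.085 and 7.93 ± 0.94, 3.55-fold higher. Akr1a1, Esd, Ephx1 and Cbr1 were 1.71-fold to 1.93-fold higher, Cbr3 was dim on all WT arrays, and Nqo2, Akr1b8 and Aox1 differed by less than 0.25 on the log2 scale in either direction. In 4 of the 10, Nqo1, Ptgr1, Akr1a1 and Cbr3, all Keap1_KO arrays lay above all WT arrays, which held for 6.01% of the 30024 named genes. The reverse order was found in 1 of the 10, Aox1, and in 8.33% of named genes. Of the 10, 8 had a higher mean in Keap1_KO and the median difference was 0.81, whereas 44.4% of named genes had a higher mean and their median difference was -0.033. Among the 16825 genes past the intensity filter, which 7 of the 10 passed, 56.5% had a higher mean and the median difference was 0.061. All Keap1_KO arrays lay above all WT arrays in 9.11% of those genes. Since the 10 had been chosen with earlier results of these data known, these shares are a description and not a test. The median over the 10 was 0.21 with the mean of the neutrophil genes, which also read higher on Keap1_KO C and D, as covariate, 0.087 with the first principal component, and 0.58 to 1.20 with an array left out. The neutrophil mean in part follows genotype. Every fit with it as covariate may therefore take away part of the difference between genotypes.

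No member passed the test across all genes. Limma with Benjamini-Hochberg adjustment over the 16825 genes past the intensity filter called 0 genes, or 0% of those tested, at adjusted p under 0.05. Without Keap1_KO B it called 569 genes, Nqo1 among them, and with array weights 1880, with Nqo1, Ptgr1 and Akr1a1. At unadjusted p under 0.05 the same fit held 8.38% of genes higher and 1.92% lower in Keap1_KO. The filter, a value at or above the array median on 3 of the 6 arrays, was met by 7 members and not by Cbr3, Akr1b8 and Aox1, and Nqo1 met it through its Keap1_KO arrays alone. In the fit without the filter, 4 of the 10 members had unadjusted p under 0.05 and a higher mean, against 5.75% of named genes, and 0 a lower one. The exact two-sided permutation test cannot go below 0.1 with 3 arrays against 3, which every member without overlap reached.

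**Figure D1:**
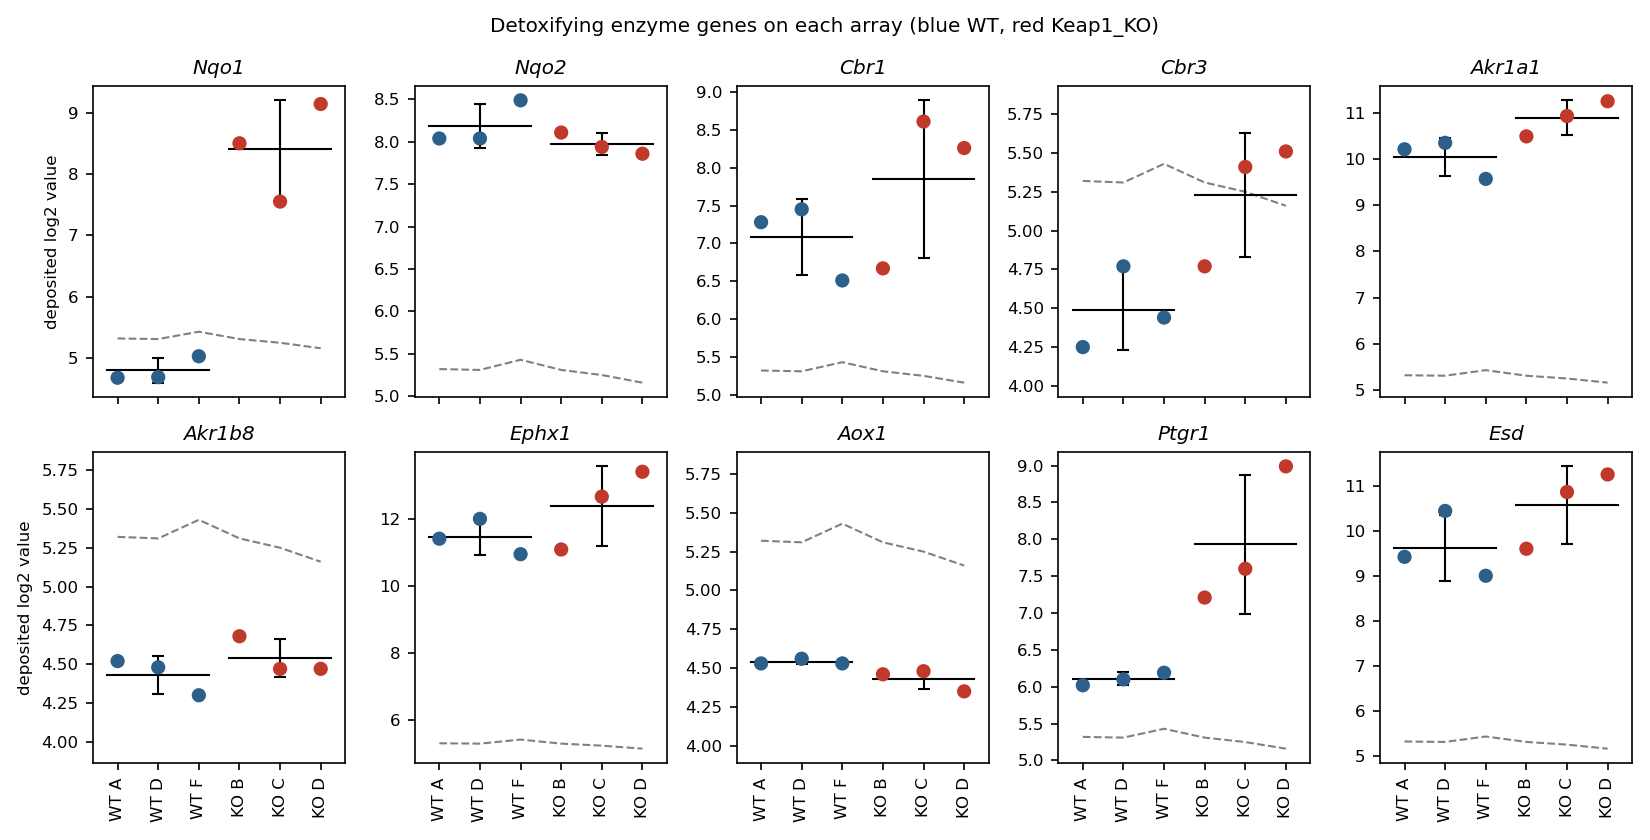
Deposited log2 values of the 10 enzymes on each array, WT in blue and Keap1_KO in red, with group means and SD (black bars, n = 3) and the median of each array (dashed grey line); vertical scales differ between panels. Nqo1 lies below the array median on all 3 WT arrays and at 7.55 to 9.14 on the Keap1_KO arrays, while Akr1b8 and Aox1 lie below it on all 6.

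Among the quinone reductases, Nqo1 separated the genotypes on every array and Nqo2 did not. Nqo1, the NADPH-dependent enzyme, read 4.68 (A), 4.69 (D) and 5.03 (F) in WT and 8.50 (B), 7.55 (C) and 9.14 (D) in Keap1_KO. The lowest Keap1_KO array thus lay 2.52 above the highest WT array, and the 3 WT values were all dim. The difference was 3.60 (SE 0.40, 95% interval 2.63 to 4.56, limma p = 7.38e-05, adjusted p = 0.31), with the exact permutation p at 0.1. It was 3.54 without Keap1_KO B (limma adjusted p = 0.0381) and 3.63 with array weights (0.0408). Over the alternatives the adjusted p ranged up to 0.998. Without Keap1_KO B the difference was smaller and the unadjusted limma p of Nqo1 larger than with all arrays. The lower adjusted p in that fit came with the 569 genes called there, not with stronger evidence from Nqo1 itself. In the fit without the filter, which Nqo1 had passed through its Keap1_KO arrays alone, the adjusted p was 0.563. Since the WT readings were dim, the fold is not exact, and with the median of each WT array in place of its Nqo1 reading the difference was 3.04, or 8.25-fold.

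Nqo2, a relative that uses dihydronicotinamide riboside instead of NADPH, was not dim on any array. It read 8.04 (A), 8.04 (D) and 8.49 (F) in WT and 8.11 (B), 7.94 (C) and 7.86 (D) in Keap1_KO, and the groups overlapped. The difference was -0.22 (95% interval -0.69 to 0.25, exact permutation p = 0.3), an interval whose upper end lies far under the lower end for Nqo1.

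The carbonyl reductases Cbr1 and Cbr3, short-chain enzymes whose genes lie next to each other with only the pseudogene Gm5678 between them in the RefSeq annotation, gave similar differences with different patterns. Cbr1 reduces quinones and prostaglandins and read 7.28 (A), 7.45 (D) and 6.51 (F) in WT and 6.67 (B), 8.61 (C) and 8.26 (D) in Keap1_KO. Keap1_KO B lay below WT A and WT D, and the difference of 0.77 (95% interval -0.54 to 2.08, exact permutation p = 0.3) did not exceed the spread between arrays. It was 1.36 without Keap1_KO B (limma adjusted p = 0.0764) and 0.19 with the mean of the neutrophil genes as covariate.

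Cbr3 was dim on all WT arrays and on Keap1_KO B. It read 4.25 (A), 4.77 (D) and 4.44 (F) in WT and 4.77 (B), 5.41 (C) and 5.51 (D) in Keap1_KO. The groups stayed apart by only 0.0032, between Keap1_KO B and WT D. The difference was 0.75 (95% interval 0.15 to 1.34) in the fit without the filter, with limma adjusted p = 0.563 and exact permutation p = 0.1. With the neutrophil genes as covariate it was 0.43. With the median of each WT array in place of its Cbr3 reading, and Keap1_KO B left at its own dim reading, it was -0.12. Because most of the readings were dim, no fold is given.

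The aldo-keto reductases were a bright and a dim gene. Akr1a1 encodes the widely expressed aldehyde reductase that also takes part in ascorbate synthesis in mice. It read 10.21 (A), 10.35 (D) and 9.57 (F) in WT and 10.49 (B), 10.93 (C) and 11.25 (D) in Keap1_KO. All Keap1_KO arrays lay above all WT arrays, by 0.14 at the closest, and the difference was 0.84 (SE 0.29, 95% interval 0.14 to 1.55, limma adjusted p = 0.476, exact permutation p = 0.1). It was 0.86 with array weights (limma adjusted p = 0.0492, the lowest of a range that reached 1) and 0.54 with the neutrophil genes as covariate. Akr1b8, which reduces aldehydes and retinal, lay between 4.30 and 4.68 and under the median on all 6 arrays, with overlapping groups (difference 0.11, 95% interval -0.19 to 0.41). After each array was centred on its median the difference was 0.22, and after repeated quantile normalization 0.18. In both, all Keap1_KO arrays lay above all WT arrays.

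Ptgr1, which reduces the double bond of enones and inactivates leukotriene B4, had the next largest difference. It read 6.02 (A), 6.10 (D) and 6.19 (F) in WT and 7.21 (B), 7.60 (C) and 8.99 (D) in Keap1_KO. The WT arrays lay close together and above the array median, and every Keap1_KO array lay at least 1.01 above them. The difference was 1.83 (SE 0.45, 95% interval 0.73 to 2.92, limma p = 0.006, adjusted p = 0.476, exact permutation p = 0.1). It was 2.11 with array weights (limma adjusted p = 0.0408) and 2.19 without Keap1_KO B (0.0521). The highest value was on Keap1_KO D, which also had the highest neutrophil mean (10.29). That array likewise had the highest means for the CD4 T cell, macrophage, dendritic, B, plasma, NK and CD8 genes. It did not for the regulatory T cell, erythroid, platelet or stroma genes. With the mean of the 15 neutrophil genes past the filter as covariate, the Ptgr1 difference was 1.17 (limma adjusted p = 1). For Nqo1 it was 3.34 (0.842). On Keap1_KO B the neutrophil mean was 7.06, inside the WT range, Ptgr1 read 7.21 and Nqo1 read 8.50. The part of RNA from neutrophils or other cells in the Ptgr1 difference was not tested further.

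Ephx1 and Esd were bright in both genotypes and overlapped. Ephx1, the microsomal epoxide hydrolase, read 11.40 (A), 11.99 (D) and 10.94 (F) in WT and 11.08 (B), 12.65 (C) and 13.39 (D) in Keap1_KO. Its difference of 0.93 had a 95% interval from -0.53 to 2.39 (exact permutation p = 0.3), was 1.58 without Keap1_KO B (limma adjusted p = 0.0765) and was 0.031 with the neutrophil genes as covariate. Esd read 9.42 (A), 10.44 (D) and 9.0 (F) in WT and 9.60 (B), 10.86 (C) and 11.25 (D) in Keap1_KO. Its difference was 0.95 (95% interval -0.35 to 2.24, exact permutation p = 0.2), with Keap1_KO B below WT D as for Ephx1 and Cbr1, and it was 1.43 without Keap1_KO B and 0.23 with the neutrophil genes as covariate.

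Aox1, a molybdenum enzyme that oxidises aldehydes and heterocycles, was dim on all 6 arrays. It read 4.53 (A), 4.56 (D) and 4.53 (F) in WT and 4.46 (B), 4.48 (C) and 4.35 (D) in Keap1_KO. All Keap1_KO values lay lower, by 0.11 on average (95% interval -0.35 to 0.13), a shift of the size by which the array medians themselves differ. After each array was centred on its median the difference was -0.0013.

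**Figure D2:**
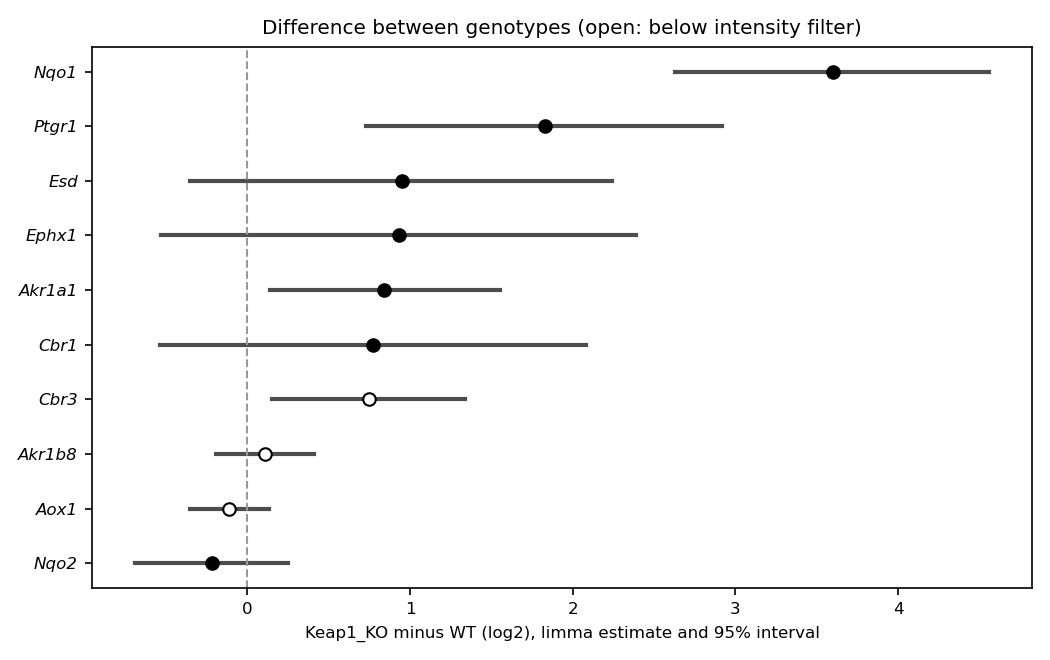
Difference between genotypes (Keap1_KO minus WT, log2) with its 95% interval from limma, for each of the 10 enzymes; open circles mark the 3 genes under the intensity filter. The interval lies above 0 for Nqo1, Ptgr1, Akr1a1 and Cbr3 and includes 0 for the other 6.

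The order of the arrays differed between enzymes. The first principal component of the tested genes held 66.6% of the variance among the arrays and scored -0.54 (F), -0.29 (A) and 0.04 (D) in WT and -0.23 (B), 0.47 (C) and 0.56 (D) in Keap1_KO. Only Keap1_KO B and WT D were out of the order of the genotypes, so the component in part follows genotype. A fit with it as covariate may therefore take away part of the difference between genotypes. Ephx1, Cbr1 and Esd had their 3 highest values on the 3 arrays that scored highest, Keap1_KO C, Keap1_KO D and WT D, and their lowest on WT F. With that component as covariate the differences were -0.34 for Ephx1, -0.33 for Cbr1 and -0.19 for Esd. The same covariate left 3.70 for Nqo1 (limma adjusted p = 0.998), 1.26 for Ptgr1, 0.33 for Akr1a1 and 0.30 for Cbr3. In Nqo1 the array Keap1_KO B (8.50) stood above Keap1_KO C (7.55), an order that Ptgr1, Akr1a1 and Cbr3 did not share.

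**Figure D3:**
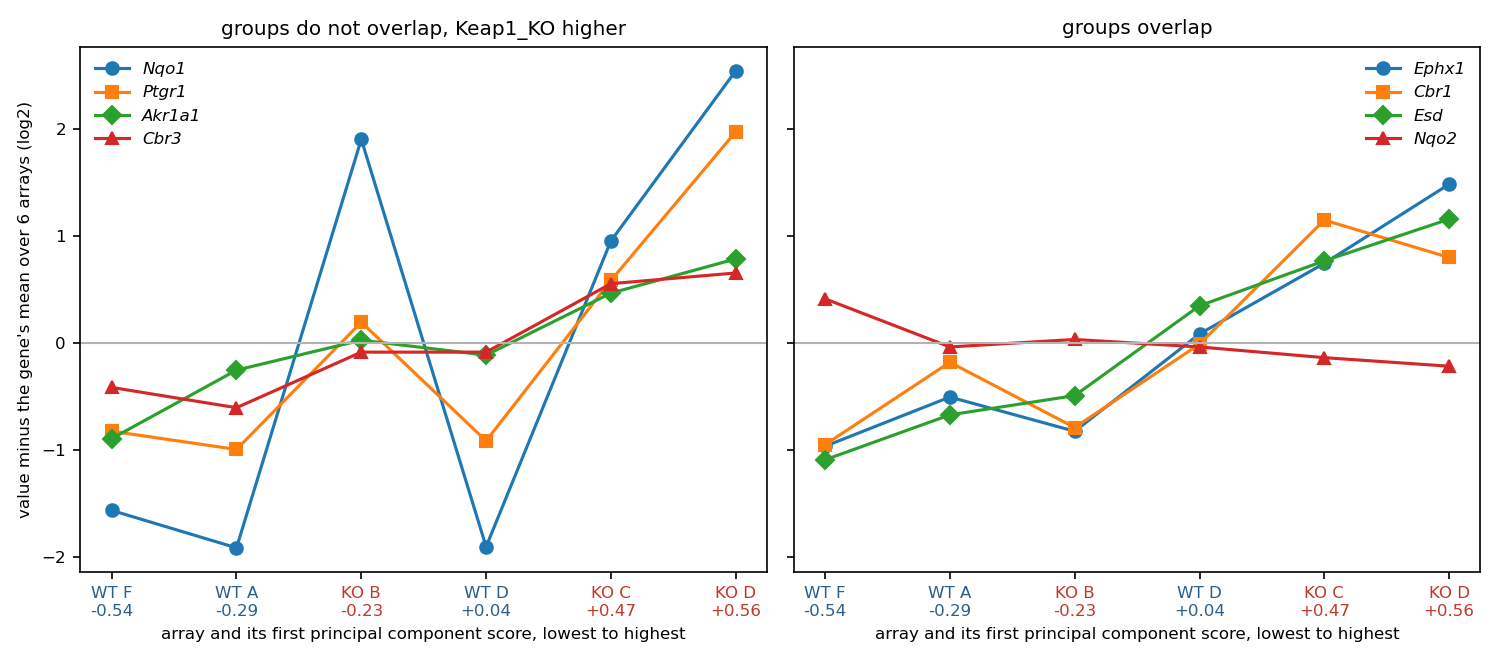
Value of each gene minus its mean over the 6 arrays (log2), with the arrays ordered by their first principal component score, printed under each name. On the left, Nqo1 and Ptgr1 separate Keap1_KO B from WT D; on the right, Ephx1, Cbr1 and Esd read lower on Keap1_KO B than on WT D, and Nqo2 lies close to 0 on all arrays except WT F.

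Genes whose profile over the 6 arrays was nearest to that of Nqo1, by the mean absolute distance of mean-centred values, were Sva (distance 0.43), a secreted seminal vesicle protein gene, the linker histone gene H1f5 (0.57), the glutathione transferase gene Gstm1 (0.67), the small RNA gene Gm24289 (0.70) and the cytotoxic granule protease gene Gzmb (0.75). Their differences were 3.05, 2.73, 2.87, 2.20 and 2.10, in that order. Sva was dim on all 3 WT arrays, as Nqo1 was. Likeness over 6 arrays is a description, and Gzmb is also a marker of the NK cell list.

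Related enzymes outside the group that passed the filter mostly had higher means in Keap1_KO too, and none of those differed by as much as Nqo1 or Ptgr1. Without the filter the list medians ran from -0.018 (other epoxide hydrolases) to 0.40 (glyoxalase list), against -0.033 over all named genes. Of 126 genes in 10 lists, 114 had a cluster of their own and 71 passed the filter; 59 of these 71 had a higher mean in Keap1_KO, with a median difference of 0.26, against 56.5% and 0.061 over all genes tested. No gene of the lists passed the adjusted threshold (0 of 71). All Keap1_KO arrays lay above all WT arrays in 11 of the 71, against 9.11% of genes tested, and below in 0, against 4.96%. At unadjusted limma p under 0.05, 11 were higher and 0 lower, against 8.38% and 1.92% of genes tested. The lists too had been chosen with earlier results of these data known.

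All 12 tested short-chain dehydrogenases and carbonyl reductases had higher means (median 0.33), and in 4 the groups did not overlap. Dhrs7 differed by 1.48, Dhrs1 by 1.19 and the retinaldehyde reductase gene Dhrs3 by 0.90. For Dhrs7 the groups barely parted: WT A and Keap1_KO B both read 8.69 after rounding, and Keap1_KO C and D read 9.82 and 11.05. Of 13 aldo-keto reductases with a cluster only 5 passed the filter, and these had higher means (median 0.84), among them Akr1c12 with 1.13. The median over the list was 0.10 without the filter and 0.055 with the first principal component as covariate, and it lay between 0.49 (without WT F) and 1.22 (without Keap1_KO B) with an array left out. Akr1b10, the neighbour of Akr1b8 in the RefSeq annotation, differed by 0.55 and was above the median on all arrays, unlike Akr1b8.

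Among 7 tested medium-chain quinone and enone reductases and relatives, 5 had higher means (median 0.31). The groups did not overlap for Tecr (1.34), which reduces the double bond of very long fatty acyl chains and belongs to another protein family, Ptgr2 (0.54), a reductase of oxidised prostaglandins, and Vat1 (0.40). Ptgr2 read 7.75 (A), 8.09 (D) and 7.74 (F) in WT and 8.15 (B), 8.64 (C) and 8.39 (D) in Keap1_KO. Its difference had a 95% interval from 0.048 to 1.02 and overlaps that of Ptgr1 (0.73 to 2.92).

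Flavoprotein reductases that pass single electrons had no separated gene among 3 tested (median 0.31). Cyb5r3 differed by 0.63, Cyb5r4 by 0.31 and Mtrr by -0.14. The other epoxide hydrolases tested were Lta4h, which also makes leukotriene B4, with 0.46, and Ephx4 with -0.018, and both overlapped.

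Molybdenum enzymes and their cofactor genes overlapped in all 8 tested (median 0.24, 6 with higher means). Suox, the sulfite oxidase gene, differed by 1.32 and Mocos, which activates the cofactor for aldehyde oxidase, by 0.74. Xdh, the xanthine dehydrogenase gene, went the other way by -0.76. It read 10.98 (A), 10.42 (D) and 12.89 (F) in WT and 11.71 (B), 10.30 (C) and 9.99 (D) in Keap1_KO.

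Aldehyde and alcohol dehydrogenases had a median of 0.14 over 13 tested genes, 10 of them with higher means. Mitochondrial Aldh2 was the 1 separated gene, at 5.73 (A), 6.00 (D) and 5.80 (F) in WT and 6.17 (B), 6.56 (C) and 6.80 (D) in Keap1_KO (difference 0.67). The glyoxalase list had 6 of 6 higher means (median 0.45, but 0.046 with the neutrophil genes and -0.13 with the first principal component as covariate) and no separation, with 0.94 for Park7, 0.63 for the glyoxalase gene Glo1 and 0.51 for Hagh. Pon3, a lactonase, differed by 1.12 without overlap, in a list of 9 esterases and lactonases with a median of 0.10. Of 6 conjugating enzymes 5 had higher means (median 0.15), led by the sulfate activator Papss1 with 0.49, and none separated.

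**Figure D4:**
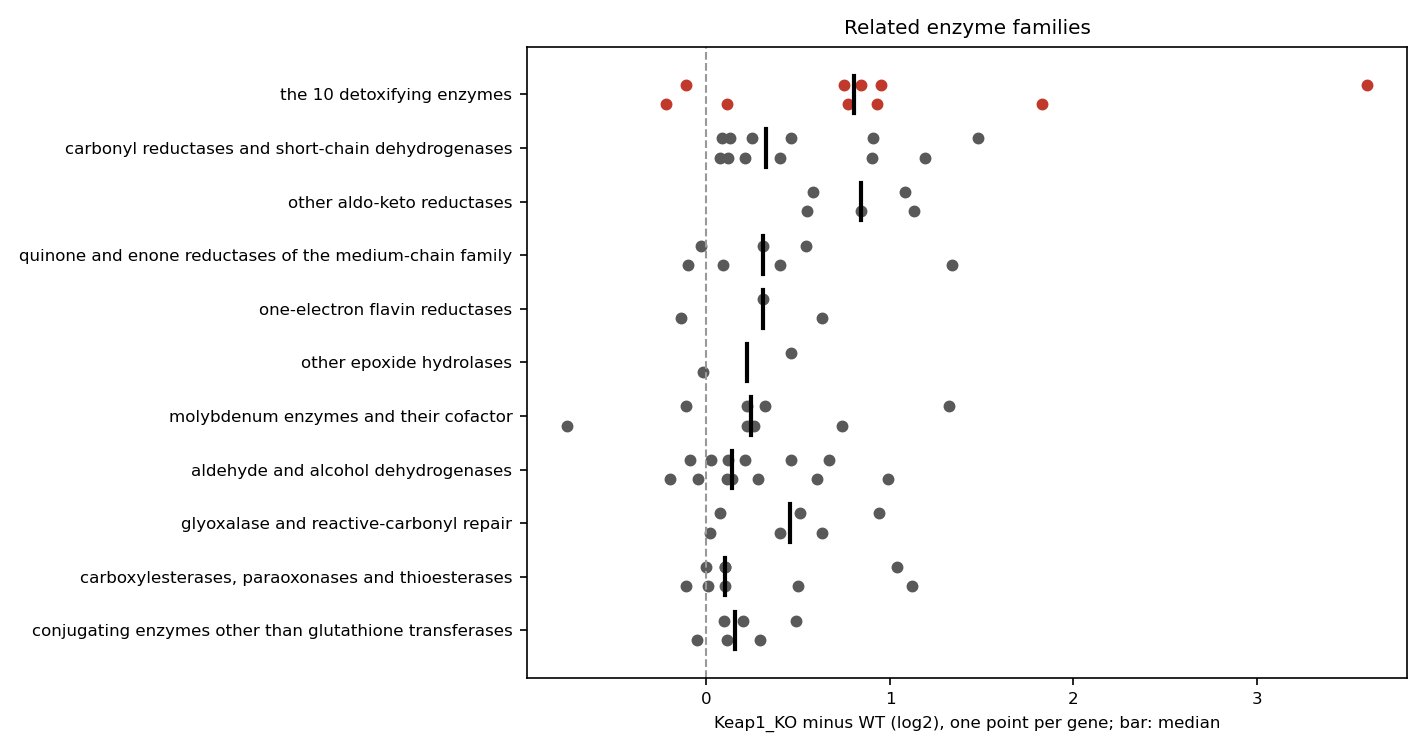
Difference between genotypes (Keap1_KO minus WT, log2) for each tested gene of 10 related families (grey) and for all 10 described enzymes, dim ones included (red); black bars are medians. Nqo1 (3.60) and Ptgr1 (1.83) lie beyond every tested gene of the related families, among which the largest difference is 1.48 for Dhrs7.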

How the data were processed

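Per the labels' protocols, 40 ng of RNA from magnetically isolated cells was amplified with a NuGen Ovation Pico kit. Each array gave 1 deposited log2 value per transcript cluster. The submitters' processing notes name RMA, Affymetrix Expression Console and Transcriptome Analysis Console, without roles or versions; RMA subtracts background, equalises the arrays' distributions and summarises probes. Values run from 1.88 to 19.93, and 1268 of 65528 clusters exceed 16, the limit of a 16-bit scanner, so a rescaling not stated in the sources used here was applied. A Mouse Gene 2.0 array is named in the design text, but the identifiers match another Affymetrix mouse annotation. The authors' genome build was not stated in these sources. Names from that annotation were updated by Entrez identifier, and the brightest cluster stood for a gene. For arrays, their number limits precision.

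Groups follow the sample titles. Limma 3.58.1 in R 4.3.3 (lmFit, eBayes, two-sided) was fitted across all 16825 genes with a value at or above the array median on at least 3 of the 6 arrays, with Benjamini-Hochberg adjustment. Members under that filter were read from the fit to all 30024 named genes. The fit was tested on simulated data with independent noise for each gene and array. That test cannot show how the fit behaves where genes vary together over the arrays, as they did here. Alternatives were no or a stricter filter, other scaling, trend and robust variance, array weights, mean of clusters and each array left out. Fits with an array left out kept the filter as set on all 6 arrays. A further alternative had as covariate the mean of the 15 neutrophil genes past the filter, whereas the neutrophil means given by array cover 17 genes. The first principal component as covariate, and counts of separated genes under the alternatives, were added after seeing the data. Named were all members and, per related list, up to 3 genes with the largest difference, taken among separated genes first; Keap1, Nfe2l2 and the 5 nearest profiles to the top member were added. Members and lists were chosen with earlier results of these data known.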

Additional observations from a re-analysis of the deposited data

How the results depend on the processing

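Of 10 members, 8 had a higher mean in Keap1_KO under the reported setting and 6 to 8 under the 15 alternatives. Members past the adjusted threshold numbered 0, except 3 (Nqo1, Ptgr1, Akr1a1) with array weights (limma adjusted p = 0.0408, 0.0408 and 0.0492) and 1 (Nqo1, adjusted p = 0.0381) without Keap1_KO B. The range was 0 to 1 over the arrays left out. Nqo1 entered both fits through its Keap1_KO arrays alone, by a filter set on all 6 arrays. Over all genes the calls were 0, 1 with trend and robust variance, 1880 with array weights and 0 to 569 with an array left out, the 569 without Keap1_KO B. The difference of Nqo1 ranged from 3.23 to 4.02 and that of Ptgr1 from 1.17 to 2.19, with limma adjusted p from 0.0381 to 0.998 and from 0.0408 to 1. The median over the members, 0.81, was 0.21 with the neutrophil genes and 0.087 with the first principal component as covariate, and 0.58 to 1.20 with an array left out (the 1.20 without Keap1_KO B). Members with all Keap1_KO arrays above all WT arrays numbered 4 to 7 with an array left out. The 7 were without Keap1_KO B, where 20.1% of named genes separated in that direction. Without WT D there were 5, with Esd added, against 15.4%. Where 4 members separated, 7.82% to 9.05% of named genes did. Repeated quantile normalization and centring on array medians each gave 5, with Akr1b8 added, against 7.57% and 10%.

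Using the first principal component as covariate, chosen after seeing the data, turned the sign for Nqo2 (0.0083), Cbr1 (-0.33), Ephx1 (-0.34), Esd (-0.19), and for the medians of flavoprotein reductases (-0.17), molybdenum enzymes (-0.0066), aldehyde and alcohol dehydrogenases (-0.015), glyoxalase genes (-0.13) and esterases (-0.12). The esterase median was -0.03 with the neutrophil genes as covariate, and the other epoxide hydrolases had -0.018 without the filter. The first principal component and the neutrophil mean each in part follow genotype and so may take up part of the difference. The cause of these shifts was not tested. Centring the arrays moved the median of all genes by 0.11. No paired analysis was possible because the groups share only the letter D. Nqo1 in WT, Cbr3, Akr1b8 and Aox1 are limited by signal near the array median or below it.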

Other observations

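Limma's array weights ranged from 0.35 for Keap1_KO B to 3.38 for WT A. With these weights 1612 genes were called higher and 268 lower in Keap1_KO, against 0 with equal weights. Leaving out Keap1_KO B, the array with the lowest weight, gave 542 higher and 27 lower, and 551 of these 569 were also called with weights. Nqo1 was called both ways, although Keap1_KO B held its second highest reading, 8.50. Without that array the unadjusted limma p of Nqo1 was larger than with all arrays, and only its adjusted p was lower. Ephx1 and Cbr1, by contrast, read lower on Keap1_KO B than on WT A and WT D. The single gene called with trend and robust variance was the predicted gene Gm20658 (difference 1.78, limma adjusted p = 0.0319).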
